A study of Homo sapiens with 6 samples.

Results

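FOXA1, FOXA2, FOXA3, NOTO, SHH and CHRD are 6 genes known from the node, the notochord and the floor plate, and the RNA-seq table of this study lists all 6 among its 27672 genes. They were chosen by their symbols, with earlier results on their levels in these same libraries in view, so that their values in NMP-L cells and hESCs are given as a description and without a test. The libraries came from H9 cells, an established line of human embryonic stem cells, in 3 biological replicates at each of 2 stages. The hESC libraries (D0) were from untreated, undifferentiated cells, kept, by the labels, on fibronectin in DEF medium that held Noggin at 10 ng/ml and bFGF at 30 ng/ml, and, by the paper's Methods, on Geltrex in TESR medium. The NMP-L libraries (D3) were from neuromesodermal progenitor-like cells made from H9 cells over 3 days in N2/B27 medium with CHIR99021 at 3 µM, an inhibitor of GSK3 that activates Wnt signalling, and bFGF at 20 ng/ml. For the onward step to neural progenitors the Methods add Noggin and SB431542, which block BMP and TGFβ signalling, over a period that begins before day 3, and the labels of the NMP-L libraries do not mention them. All 6 libraries share a single cell line, and the NMP-L cells are a culture that was not sorted.

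The node is the organizer at the front of the primitive streak, and its descendants form the notochord, a rod of mesoderm under the neural tube. Notochord cells secrete SHH, which patterns the overlying neural tube and induces the floor plate at its ventral midline, and the floor plate then makes SHH as well. FOXA2 is required to form the node and notochord and is also expressed in floor plate and in definitive endoderm. NOTO is a homeobox factor of the node and early notochord that acts in the formation of node cilia, and CHRD (chordin) is a secreted protein of the organizer that binds BMPs and keeps them from their receptors.

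Of the 6 genes, FOXA2, NOTO, SHH and CHRD had more transcripts in every NMP-L library than in any hESC library, FOXA3 had fewer, and FOXA1 was close to undetected in both. FOXA2 had the largest gain in counts of the 6, from at most 5 counts per hESC library to between 264 and 535 counts per NMP-L library. NOTO and SHH stayed low, at no more than 43 and 12 counts. FOXA3 was the only one of the 6 with a high level in undifferentiated cells. Among all genes tested, 32.1% had every NMP-L library above every hESC library and 29.5% had every NMP-L library below. These shares cover only genes that passed a filter on low counts, which NOTO, SHH and FOXA1 did not.

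The libraries summed to between 19454543 and 23036426 expected counts. CPM here are counts scaled to library size after TMM normalisation, and 3 counts, taken as the detection floor, correspond to between 0.125 and 0.160 CPM. The p-values below set the difference between the stages against the variation among replicate libraries, 3 against 3. This variation is estimated in part from the other genes tested. NANOG fell from 93.7 ± 6.37 to 15.5 ± 0.283 CPM and T (TBXT, brachyury) rose by at least 137-fold, so that each library stood on the side of its label. Of 15517 genes tested, 8653 (55.8%) passed the threshold, 29.1% of all tested in the direction of NMP-L cells and 26.7% in that of hESCs. Of the differing genes 52.1% were higher, a share that became 87.5% when counts were scaled to GAPDH and 25.3% when scaled to HPRT1. Median log2 changes were 0.028 with TMM, 0.586 with GAPDH and -0.270 with HPRT1. Of the 6 genes 3 passed the filter on low counts, FOXA2 only through its NMP-L libraries, CHRD and FOXA3. In bulk RNA, more cells that express a gene and more of its RNA per cell cannot be told apart.

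**Figure D1:**
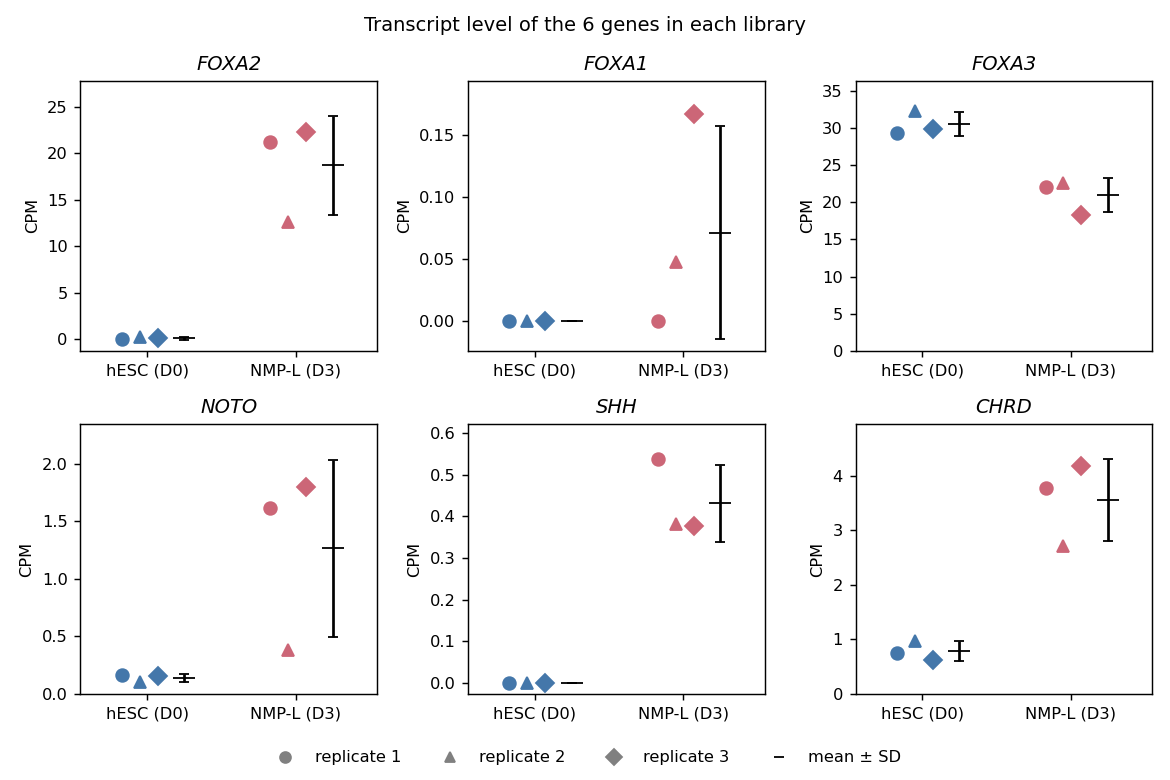
TMM-scaled CPM (linear axes, a scale for each gene) of the 6 genes in the 3 hESC (D0) and 3 NMP-L (D3) libraries, with symbols for replicate numbers and black bars for the mean ± SD. FOXA2, NOTO, SHH and CHRD sit higher in all 3 NMP-L libraries and FOXA3 lower, while the FOXA1 panel spans no more than 4 counts.

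FOXA1, FOXA2 and FOXA3 are forkhead transcription factors, often called pioneer factors because they can bind their sites in closed chromatin. FOXA2 lies on chromosome 20 (GRCh37, 22561636 to 22566093, minus strand), where no other annotated gene overlaps it. Its expected counts were 0, 5 and 2 in hESC replicates 1, 2 and 3 and 473, 264 and 535 in NMP-L replicates 1, 2 and 3. The hESC level was thus 0.120 ± 0.129 CPM and the NMP-L level 18.7 ± 5.34 CPM (SD, n = 3 in both). The conditions did not overlap, and the lowest NMP-L library was replicate 2. The fitted log2 fold change was 7.19 with a standard error of 0.42, the 16th largest rise among the 15517 genes tested. This rank is a description only, since FOXA2 was chosen with its level known and passed the filter through its NMP-L libraries alone. From the summed counts of 7 and 1272 the ratio was 155, with a 95% exact binomial interval of 75.0 to 386 that covers counting error only. The size of the change rests on a few hESC counts. Without hESC replicate 2, which held 5 of the 7 counts, the log2 fold change was 8.32, and without hESC replicate 1, which held none, it was 6.62.

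FOXA1, on chromosome 14 (38058757 to 38065264, minus strand), had 0 counts in every hESC library and 0, 1 and 4 counts in NMP-L replicates 1, 2 and 3. Only a single library exceeded the floor of 3 counts, so no fold is given, and at this depth FOXA1 was at or under the floor in the other 5. TTC6, a gene that overlaps FOXA1 on the opposite strand, had between 4 and 12 counts per library.

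FOXA3, on chromosome 19 (46367247 to 46377055, plus strand), is best known from liver and other endoderm derivatives. It had 551, 629 and 572 counts in hESC replicates 1, 2 and 3 and 492, 474 and 438 in the NMP-L replicates. Its hESC level of 30.5 ± 1.58 CPM and its NMP-L level of 21.0 ± 2.35 CPM did not overlap. The log2 fold change was -0.54 with a standard error of 0.11. This small fall depended on the scaling, since it was -0.84 relative to HPRT1 counts and 0.0088, with no fall, relative to GAPDH counts. FOXA3 differed from FOXA2 and CHRD in this respect, whose changes kept their direction under every scaling tried.

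Levels can be compared between the paralogues only per transcript length, for which the deposited TPM values were used. FOXA3 made up between 99.3% and 100% of the summed FOXA TPM in hESC libraries. In NMP-L replicates 1, 2 and 3 FOXA2 made up 43.9%, 31.1% and 49.7% of that sum, and nearly all of the rest was FOXA3, as FOXA1 reached at most 0.257%. The summed FOXA TPM was between 31.5 and 33.5 in hESC libraries and was 43.4, 36.2 and 42.8 in the NMP-L libraries. The paralogues can be told apart by reads of this length. Of the 4459, 2642 and 2048 different stretches of 76 bases, the read length, in the annotated FOXA1, FOXA2 and FOXA3 transcripts, 0 occur in transcripts of any other gene. None of the 6 genes had a fractional expected count.

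**Figure D2:**
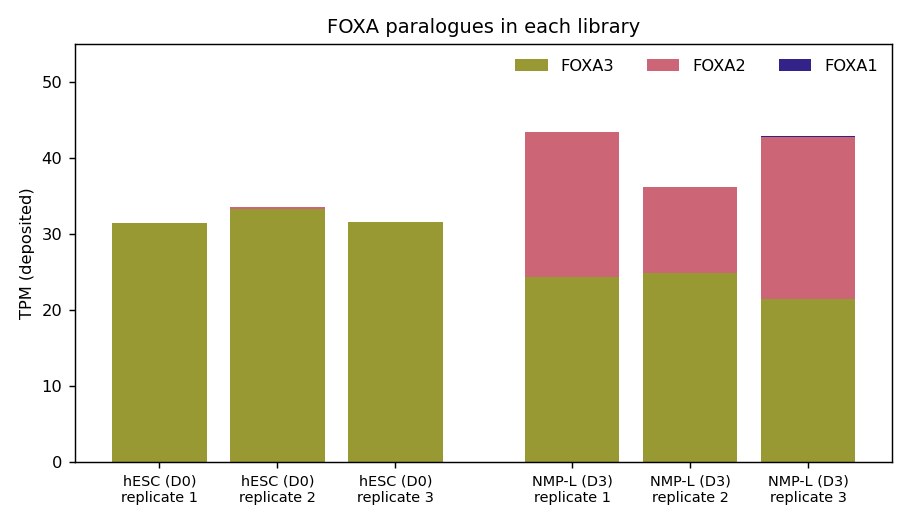
Deposited TPM of FOXA3 (bottom), FOXA2 (middle) and FOXA1 (top) stacked for each of the 6 libraries, on a linear axis from 0. The hESC bars consist almost wholly of FOXA3 and total 31.5 to 33.5 TPM, and FOXA2 adds 11.3 to 21.3 TPM in the NMP-L bars.

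The nearest gene to FOXA2 in the table, LINC00261, a long noncoding RNA gene on the same strand that lies 2356 bases from it (22528301 to 22559280), had a like pattern. It had 0, 2 and 2 counts in hESC replicates 1, 2 and 3 and 197, 122 and 286 counts in NMP-L replicates 1, 2 and 3. The NMP-L level of LINC00261 was higher by at least 56.5-fold (edgeR's quasi-likelihood test, adjusted p = 3.96e-07), and its lowest NMP-L library was again replicate 2. The nearest listed gene on the other side of FOXA2, LINC01747, had 0 counts in all 6 libraries. The neighbours of the other 5 genes differed less. SYMPK, which lies 795 bases from FOXA3 on the opposite strand, fell by 0.35 on the log2 scale (standard error 0.09, adjusted p = 0.00427 from edgeR), a call that was lost relative to GAPDH counts (0.20, adjusted p = 0.0723). The other tested neighbours, MIPOL1, IRF2BP1, RAB11FIP5, SMYD5, RBM33 and POLR2H, had log2 fold changes between -0.24 and 0.29. Of these POLR2H beside CHRD (adjusted p = 0.0117 from edgeR) and SMYD5 beside NOTO (adjusted p = 0.0449) passed the threshold, and relative to HPRT1 counts neither did, at -0.0098 and -0.0424. LINC00517 had at most 1 count in any library, and LINC00244 and LINC02054 had 0 in all.

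NOTO, on chromosome 2 (73429702 to 73439641, plus strand), had 3, 2 and 3 counts in hESC replicates 1, 2 and 3, at or under the floor in each. In NMP-L replicates 1, 2 and 3 it had 36, 8 and 43 counts, or 1.62, 0.381 and 1.80 CPM. Every NMP-L library was above every hESC library, and NMP-L replicate 2 lay far below the other two. Against the floor, with TMM scaling and every library kept, the NOTO level of NMP-L cells was higher by at least 8.05-fold, a log2 bound of 3.01. This bound depended on the libraries and on the scaling. Leaving out each library in turn moved it between 2.67 and 3.45, the highest value being that without NMP-L replicate 2. Scaling by HPRT1 lowered the bound to 2.71, and scaling by GAPDH raised it to 3.59. NOTO did not pass the filter of the test across genes.

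SHH, on chromosome 7 (155592674 to 155605157, minus strand), encodes the ligand that notochord and floor plate secrete. It had 0 counts in all 3 hESC libraries and 12, 8 and 9 counts in NMP-L replicates 1, 2 and 3. The NMP-L level was 0.432 ± 0.0923 CPM, and SHH was at least 2.75-fold higher there than the floor allows for hESCs. Unlike NOTO, SHH had similar counts in all 3 NMP-L libraries, and at 8 to 12 counts the libraries cannot be ranked beyond counting error. This bound lay between 2.00 on the log2 scale relative to GAPDH counts and 1.18 relative to HPRT1 counts, against 1.46 with TMM.

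CHRD, on chromosome 3 (184097842 to 184108524, plus strand), had 14, 19 and 12 counts in hESC replicates 1, 2 and 3 and 84, 57 and 100 counts in NMP-L replicates 1, 2 and 3. It was thus the only one of the 4 higher genes with a clear level in hESCs, at 0.783 ± 0.178 CPM against 3.55 ± 0.754 CPM in NMP-L cells. The log2 fold change was 2.18 with a standard error of 0.26, and it was 2.74 relative to GAPDH counts. THPO overlaps CHRD on the opposite strand, and 214 of the 7684 different 76-base stretches of CHRD transcripts (2.785%) also occur in THPO transcripts on either strand. THPO itself had 5, 12 and 14 counts in hESC replicates 1, 2 and 3 and 22, 15 and 19 in the NMP-L replicates, and it did not pass the threshold (log2 fold change 0.62, standard error 0.37, adjusted p = 0.177 from edgeR). Whether the counting used strand is not given in the sources used here.

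Ordered by TPM, the hESC levels were 32.1 ± 1.04 for FOXA3, 0.457 ± 0.0961 for CHRD, 0.207 ± 0.0493 for NOTO and 0.103 ± 0.111 for FOXA2, with FOXA1 and SHH at 0. NOTO and FOXA2 did not differ beyond their spread in hESCs. In NMP-L cells the order was FOXA3 at 23.6 ± 1.85 TPM, FOXA2 at 17.2 ± 5.26, CHRD at 2.21 ± 0.530, NOTO at 2.01 ± 1.25, SHH at 0.480 ± 0.0755 and FOXA1 at 0.0467 ± 0.0569. CHRD and NOTO overlapped, and FOXA2 in its highest library (21.3 TPM) came close to FOXA3 in its lowest (21.4 TPM) without reaching it. FOXA2 thus lay below CHRD in hESCs and above it in NMP-L cells.

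Promoter windows of 300 bases around the annotated start of transcription were taken from RefSeq (GRCh38.p14) for 5 of the 6 genes, all but FOXA2. They are shown for NOTO, SHH and CHRD, which were higher in every NMP-L library, and for FOXA3, which was lower, since they differ widely in base composition. They lie at chr2:73202324-73202623 (plus strand), chr7:155812414-155812713 (minus strand), chr3:184379804-184380103 (plus strand) and chr19:45864076-45864375 (plus strand), in that order, and run 5′ to 3′ on the strand of the gene. Capitals mark matches, on either strand, to any of 6 motifs searched. These were the TATA box, spelled TATAAA, the box of many promoters spelled CCAAT, the core that TCF and LEF factors bind, spelled CTTTGA, the FOXA core, spelled TGTTTNC, the core for T-box factors such as T, spelled AGGTGTGA, and lastly the core for the GLI factors of Hedgehog signalling, spelled GGGTGGTC. No match shown overlaps another.
NOTO: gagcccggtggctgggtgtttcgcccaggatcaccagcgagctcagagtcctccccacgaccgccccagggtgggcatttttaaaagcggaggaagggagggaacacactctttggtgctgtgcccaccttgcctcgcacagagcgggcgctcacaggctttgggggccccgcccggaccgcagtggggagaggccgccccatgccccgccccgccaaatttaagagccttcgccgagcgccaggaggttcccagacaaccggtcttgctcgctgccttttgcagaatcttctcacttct
SHH: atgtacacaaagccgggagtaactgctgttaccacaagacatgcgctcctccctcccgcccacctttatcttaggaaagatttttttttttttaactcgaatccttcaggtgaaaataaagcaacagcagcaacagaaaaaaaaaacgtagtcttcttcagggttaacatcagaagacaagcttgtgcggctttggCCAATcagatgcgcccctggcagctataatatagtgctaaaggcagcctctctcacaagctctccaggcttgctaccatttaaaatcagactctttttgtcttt
CHRD: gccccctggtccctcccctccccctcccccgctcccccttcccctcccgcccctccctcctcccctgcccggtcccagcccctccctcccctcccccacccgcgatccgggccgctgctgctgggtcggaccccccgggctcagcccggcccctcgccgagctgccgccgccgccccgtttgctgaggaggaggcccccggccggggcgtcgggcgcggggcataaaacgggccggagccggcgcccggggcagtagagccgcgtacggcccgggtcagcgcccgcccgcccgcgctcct
FOXA3: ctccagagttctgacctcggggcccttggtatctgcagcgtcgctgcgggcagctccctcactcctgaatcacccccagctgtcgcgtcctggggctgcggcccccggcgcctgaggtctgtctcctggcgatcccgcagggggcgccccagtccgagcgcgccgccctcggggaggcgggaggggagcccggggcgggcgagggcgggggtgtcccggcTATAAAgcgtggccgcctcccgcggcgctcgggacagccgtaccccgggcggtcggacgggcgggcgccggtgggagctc

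The G and C content was 64.3% for NOTO, 43.3% for SHH, 81.3% for CHRD and 76.3% for FOXA3, against a median of 58.7% over 35116 RefSeq windows of the same length. FOXA3 had a TATA box 30 bases before its start, a motif found in 11.5% of all windows. SHH had a CCAAT box 54 bases before its start, a motif found in 34.6% of windows. NOTO and CHRD held none of the 6 motifs in this window. The TCF/LEF core, in 12.9% of all windows, the T-box core, in 0.98%, and the GLI core, in 0.974%, were not found in any of the 5 windows. The FOXA core, in 18% of all windows, was found in that of FOXA1 alone, 235 bases before its start.

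NOTO, FOXA2 and CHRD were all lowest in the same NMP-L library, which was noticed once the values were known. NMP-L replicate 2, divided by the mean of replicates 1 and 3, was 0.224 for NOTO, 0.578 for FOXA2 and 0.684 for CHRD, whereas for FOXA3 replicate 2 was the highest of the 3. Of 14187 tested genes with at least 1 CPM in NMP-L cells, 1.55% had a ratio as low as that of FOXA2 and 3.39% as low as that of CHRD. Among the 1328 of these that passed the threshold with a rise of 2-fold or more, the shares were 2.86% and 6.25%. The ratio was also low for T (0.554), LINC00261 (0.559), CDX2 (0.637) and CDX1 (0.702). Among 8 genes of node cilia and left-right asymmetry with at least 1 CPM, replicate 2 was the lowest library for 7. The share was 24.9% of all 14187 genes and 33.7% of the 1328. By the same count it was lowest for 3 of 6 node and organizer genes, 3 of 7 notochord genes and 2 of 7 floor plate genes. It was also lowest for 3 of 4 endoderm markers, so the pattern was not particular to genes of the node. PKD1L1, which encodes a polycystin that senses flow in the node, had a ratio of 0.524, and FOXJ1, a forkhead factor that switches on genes of motile cilia, had 0.594. SOX2 (0.895) and NODAL (0.922) varied less. Read sampling alone gives a relative SD of 6.15% for FOXA2 and 13.2% for CHRD in replicate 2, but 35.4% for NOTO.

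**Figure D3:**
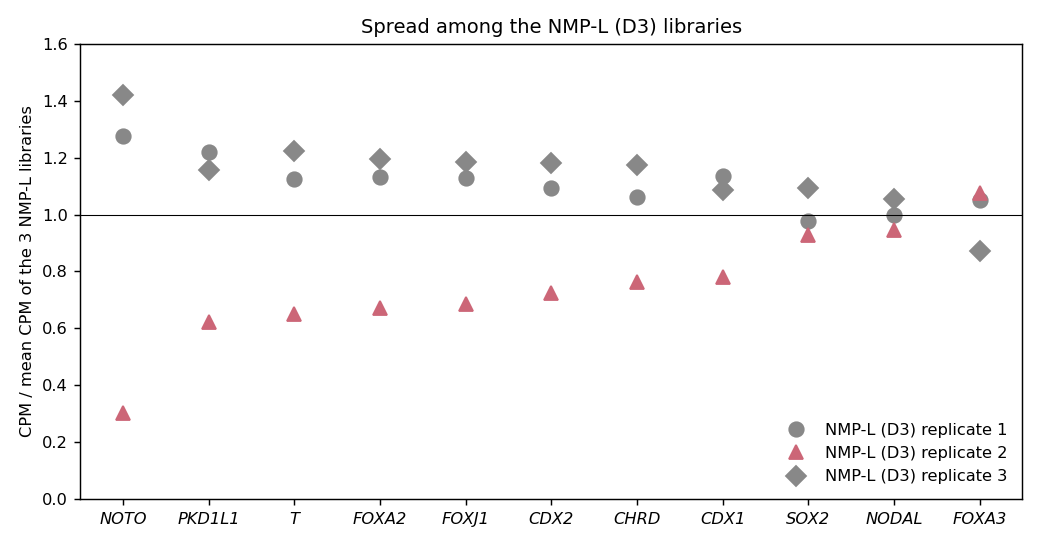
CPM of 11 genes in each NMP-L (D3) library, divided by the mean of the 3 NMP-L libraries (linear axis, line at 1); the genes other than NOTO, FOXA2, CHRD and FOXA3 were chosen for the plot after their values were seen. Replicate 2 (triangles) lies at 0.302 for NOTO and 0.672 for FOXA2, and at 1.08 for FOXA3.

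Pearson's r of log2 CPM over the 6 libraries was used to find the genes most like each of the 3 genes that were tested. These values are high for many genes because the stages form separate groups, and they describe these libraries only. For CHRD the closest 5 were LOC101930085, ENKUR, CD68, FAM213A and FLRT3, with r between 0.998 and 0.999. ENKUR, which encodes a protein of motile cilia, had 1, 2 and 0 counts in hESC replicates 1, 2 and 3 and 37, 18 and 53 in NMP-L replicates 1, 2 and 3. For FOXA2 the closest were LOC100287497, SNX24, GREB1L, TCTEX1D2 and ORM2, with r between 0.998 and 1.000, and of these GREB1L rose from 0.160, 0.514 and 0.261 CPM to 10.2, 8.01 and 10.2 CPM. For FOXA3 they included MYL6, RPSA, TRAP1 and PMEL, with r between 0.997 and 0.999, which shared with FOXA3 their lowest value in NMP-L replicate 3.

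Other genes of the node and organizer did not move as one. Of 14 such genes 9 were tested, 3 of them higher, 5 lower and the median log2 fold change -0.51, against 0.028 over all genes. NODAL, the ligand that maintains the node, rose by 2.28 on the log2 scale (edgeR standard error 0.15, adjusted p = 2.54e-07), and FST, a secreted antagonist of activin and BMP, by 2.30 (edgeR standard error 0.13, adjusted p = 6.53e-08). EOMES, a T-box factor of the primitive streak, was at least 14.9-fold higher (adjusted p = 2.67e-06). GDF3 fell by 3.72 on the log2 scale and FRZB, a secreted Wnt antagonist, fell by 1.51. LEFTY2, low in both stages, was lower by at least 6.89-fold (adjusted p = 4.08e-04 from edgeR). LEFTY1, too low to test, had 16.1, 11.5 and 9 expected counts in hESCs and 0, 0 and 1 in NMP-L cells. NOG, whose protein binds BMPs as CHRD does, had 2, 1 and 1 counts in hESCs and 7, 6 and 11 in NMP-L cells, and GSC no more than 8 in any library.

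Of 9 notochord genes 8 were tested, with 6 higher and 1 lower and a median of 0.55. T rose together with COL2A1, a fibrillar collagen of the notochord and cartilage (log2 fold change 2.51, standard error 0.16, adjusted p = 2.26e-07 from edgeR), and SOX9, its activator (1.79, standard error 0.12, adjusted p = 2.33e-07). ACAN, which encodes the matrix proteoglycan aggrecan, fell by 1.20. T also marks the NMP-L state itself, and 3 of the 9 are keratins of simple epithelia. The count of notochord genes that differed was 7 and became 4 relative to HPRT1 counts, as 3 rises were lost.

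Of 13 floor plate genes 7 were tested, with 4 higher, 2 lower and a median of 0.39. SLIT2, an axon guidance ligand, rose by 3.12 (standard error 0.13, adjusted p = 5.25e-09 from edgeR), SPON1 (F-spondin) by 2.30 (standard error 0.14) and SLIT3 by 0.66, a rise that was lost relative to HPRT1 counts (adjusted p = 0.249). SLIT1 fell by 1.26 and SULF1 by 1.13. Relative to HPRT1 counts NTN1 was lost as well, which left 2 higher and 2 lower. FERD3L, CORIN, LMX1A, NKX2-2 and NKX6-1, which mark the floor plate or the ventral neural tube next to it, had at most 3 counts in every library. The summed level of the 13 genes was between 51.6 and 53.5 CPM in hESC libraries and between 100 and 106 CPM in NMP-L libraries.

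Of 11 genes of node cilia and left-right asymmetry 8 were tested, with 5 higher and 0 lower and a median of 0.65, or 3 higher and 1 lower relative to HPRT1 counts. The 5 rises include PKD1L1 (log2 fold change 3.72, standard error 0.36, adjusted p = 4.67e-06), DNAH5, an axonemal dynein (1.40, standard error 0.16), and FOXJ1 (0.88, standard error 0.17, adjusted p = 0.00109), all from edgeR. FOXJ1 was already well expressed in hESCs, at 24.8 CPM against 45.6 CPM in NMP-L cells. CFC1, an EGF-CFC coreceptor for NODAL that shares reads with a near-identical copy, had at most 11.8 expected counts in any library.

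The genes that send and receive SHH were examined because its level was so low. The other ligands, IHH and DHH, had at most 1 count in any library. Of 16 Hedgehog pathway genes 14 were tested, with 4 higher, 7 lower and a median of -0.29. HHAT, the enzyme that adds palmitate to SHH, rose by 4.04 (standard error 0.38, adjusted p = 4.13e-06 from edgeR), and DISP1, which releases the ligand, by 1.16 (standard error 0.15). GAS1, a coreceptor, rose by 2.19 (standard error 0.18). Of the targets by which Hedgehog signalling is usually read, 3 fell with TMM scaling. GLI1 fell by 0.67 (adjusted p = 2.12e-04), PTCH1, the receptor, fell by 0.83 (adjusted p = 3.98e-05) and HHIP fell by 1.85 (adjusted p = 5.34e-04). Relative to GAPDH counts 7 genes of the list were higher and 1 lower, and neither PTCH1 (-0.28, adjusted p = 0.0733) nor GLI1 (-0.12, adjusted p = 0.342) passed the threshold. With HPRT1 as the scale there were 3 rises and 8 falls.

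Around CHRD, 18 of 21 genes of chordin and BMP signalling were tested, with 9 higher, 7 lower and a median of 0.20. The ligands moved apart, as BMP7 rose by 1.54 (standard error 0.09, adjusted p = 9.3e-08 from edgeR) and BMP4 fell by 2.08 (standard error 0.13, adjusted p = 1.46e-07). BMPR1B, a type I receptor, rose by 3.43. BMP1, a protease that cleaves chordin, was lower (-0.66), and its relative TLL2 was higher (0.60). TLL1, of the same family, was too low to test and lower in every NMP-L library. It had 9, 13 and 8 counts in hESCs and 0, 2 and 5 in NMP-L cells. TWSG1, which binds chordin and BMP together, was higher (0.49). Among common targets of BMP signalling ID1 fell by 2.74 and SMAD6 fell by 1.72, whereas ID2 rose by 1.04 and ID3 by 0.55. BAMBI (-1.0463, adjusted p = 3.16e-05 from edgeR) and SMAD7 (-0.6205, adjusted p = 0.0425), also common targets, were lower too. The relatives of CHRD, CHRDL1 (-0.65) and CHRDL2 (1.68), did not share a direction with TMM scaling. Several of these small changes depended on the scaling. With HPRT1 as the scale there were 5 rises and 8 falls and TLL2, TWSG1 and ID3 were lost, and with GAPDH there were 10 rises and 4 falls and BMP1 and CHRDL1 were lost.

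**Figure D4:**
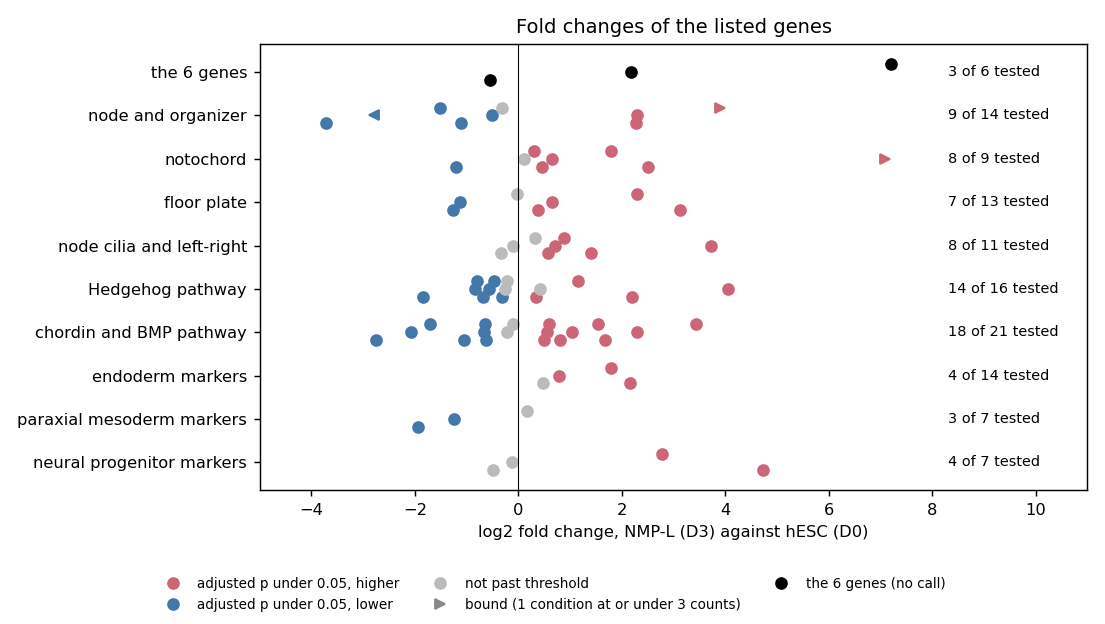
Log2 fold change of NMP-L (D3) against hESC (D0) for every tested gene of each list, coloured by the call of edgeR's quasi-likelihood test (the 6 genes in black, without a call); triangles are bounds for genes at or under 3 counts in every library of 1 stage. FOXA2 at 7.19 and CHRD at 2.18 are the right-hand points of the top row and FOXA3 at -0.54 the left-hand one, and SHH, NOTO and FOXA1 were not tested.

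FOXA2 is also a gene of definitive endoderm, and the markers of that tissue were therefore set beside it. Of 14 endoderm markers 4 were tested, with 3 higher, MIXL1 (log2 fold change 2.15, adjusted p = 6.2e-06 from edgeR), PRDM1 (1.79, adjusted p = 2.72e-04) and HHEX (0.78, adjusted p = 9.16e-04, or 0.106 relative to HPRT1 counts). MIXL1 is also a gene of the primitive streak. Without the filter, 5 were higher and 2 lower. Of the 14, 4 had at most 3 counts in every library, among them SOX17, with at most 1, and TTR, with 0 in all 6. AFP (4, 11 and 15 counts in hESCs, 0, 0 and 0 in NMP-L cells) was too low to test and lower in every NMP-L library. The same held for APOA1 (7, 5 and 9 against 2, 2 and 2). APOA2 (0, 2 and 0 against 10, 6 and 9), and CER1 and HNF4A at no more than 3 counts, were higher in every NMP-L library. The summed level of the 14 was between 8.49 and 9.97 CPM in hESC libraries and between 16.0 and 18.8 CPM in NMP-L libraries. The part of endoderm or other cell types in the level of FOXA2 was not tested.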

How the data were processed

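Polyadenylated RNA of 3 hESC and 3 NMP-L libraries was sequenced as single-end reads of 76 bases. Expected counts from RSEM, not normalised between libraries, and TPM, which RSEM scales by effective transcript length to a fixed sum, were deposited by the authors. The submitters' processing notes name cutadapt 1.9.1, STAR 2.5.2a, RSEM 1.3.0, DESeq2 1.12.3 and the build hg19, and the annotation is not given in the sources used here. All per-sample columns were used, with 0 left out.

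After rounding of the expected counts, edgeR 4.0.16 was run under R 4.3.3. Low counts were removed with filterByExpr (minimum count 10), scaled by TMM and tested for condition with glmQLFit and glmQLFTest, with Benjamini-Hochberg adjustment over all 15517 genes tested and a threshold of 0.05. The standard error is the log2 fold change divided by the square root of F. Where every library of a condition had at most 3 counts, the fold was computed against 3 counts per library and is a lower bound. Correlations used log2 CPM with a pseudocount of 0.1. DESeq2 1.42.0 was an alternative. The pipeline was tested on simulated data.

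The 6 genes and all lists were chosen with earlier results of these data known. Named list genes are the 3 largest rises and 2 largest falls past the threshold with at least 1 CPM, the genes most like each of the 3 genes that were tested (5 each) and the nearest genes that the table lists. Genes of the lists named beside these were picked with their values in view, as were the ratio of NMP-L replicate 2 to the other replicates and the 6 promoter motifs. Gene positions are from GENCODE 44 on GRCh37, the build that hg19 denotes, and shared 76-base stretches were counted on both strands of its transcripts. Figures were drawn in Python 3.11.15 with matplotlib 3.10.9. Alternatives were RLE, upper-quartile and library-size scaling, scaling to GAPDH or HPRT1, DESeq2, 2 other filters, replicate number as a block, TPM ratios and each library left out. Some genes that these rules select are not reported here.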

Additional observations from a re-analysis of the deposited data

How the results depend on the processing

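The changes of FOXA2, NOTO, SHH and CHRD kept their direction in every alternative that gave a value. FOXA3 did so in all but the scaling to GAPDH counts, where its log2 fold change was 0.0088, and it was -0.84 relative to HPRT1 counts. CHRD was 2.74 relative to GAPDH counts, and the bound of SHH was 2.00 relative to GAPDH and 1.18 relative to HPRT1 counts. With each library left out in turn FOXA2 lay between 6.62 and 8.32, and the number of endoderm markers that differed between 3 and 5 (5 without NMP-L replicate 1). That number was 7 without the filter on low counts. The number of notochord genes that differed was 4 relative to HPRT1 counts, and that of neural progenitor markers was 0 with at least 10 counts in every library, a filter that FOXA2 did not pass. For each other list the number that differed in either direction stayed within 1.5 times its value, while the split between higher and lower moved with the scaling. BAMBI, SMAD7 and LEFTY2 were not followed singly under the alternatives. Of the genes named beside the 6 that were, PTCH1, GLI1, BMP1, CHRDL1 and SYMPK (0.20) lost their call relative to GAPDH counts. Relative to HPRT1 counts HHEX, SLIT3, NTN1, TLL2, TWSG1, ID3, POLR2H (-0.0098) and SMYD5 (-0.0424) lost it. SLIT3 also lost it without hESC replicate 3, POLR2H without NMP-L replicate 2, and SMYD5 under RLE and upper-quartile scaling, with DESeq2 and without any of 4 libraries. IRX3, not called, was 0.0715 relative to GAPDH counts. Ratios of mean TPM gave log2 values of 7.38 for FOXA2, 2.27 for CHRD and -0.45 for FOXA3, while TPM levels, being in another unit, were not set against CPM levels. For the scalings, the cause was not tested.

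The stages share replicate numbers, but no source states a pairing, and libraries of the same number, as deviations from the stage mean, correlated at -0.37, -0.06 and -0.13 across genes. With replicate number as a block 7560 genes differed, 7517 of them among the 8653, and POLR2H (adjusted p = 0.0596) and SMYD5 (adjusted p = 0.1) from edgeR lost their call. No hESC library correlated best with the NMP-L library of its own number. Low depth limits FOXA1, SHH and NOTO.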

Other observations

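The series measured 44 FOX genes and 27 were tested, of which 7 rose and 8 fell, and their median log2 fold change was 0.006. This list includes FOXA2 and FOXA3, and over all genes tested the share that differed was 55.8%. FOXA2, which was chosen with its level known, rose most. Next came FOXB1, a factor of the early neural plate (1.52 to 16.8 CPM, log2 fold change 3.46, standard error 0.19, adjusted p = 6.14e-08 from edgeR), and FOXL2 (2.43, standard error 0.33). FOXD3, a factor of pluripotent cells and neural crest, fell by 4.85 (standard error 0.17, adjusted p = 2.87e-09), and FOXI2 fell by 2.71. There were 15 rises and 3 falls with GAPDH as the scale, and 6 rises and 10 falls with HPRT1.

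Markers of the tissues that neuromesodermal progenitors give rise to differed from each other. Of 7 paraxial mesoderm markers 3 were tested, and TCF15 and TBX6 fell by 1.95 and 1.24 on the log2 scale (adjusted p = 1.5e-05 and 1.34e-04 from edgeR). MSGN1 (0, 0 and 0 counts in hESCs, 7, 4 and 2 in NMP-L cells) and MESP1 (1, 0 and 4 against 6, 8 and 5) had more counts in every NMP-L library and were too low to test. Of 7 neural progenitor markers 4 were tested, and SOX1 and HES5 rose by 4.72 and 2.77 (adjusted p = 7.58e-08 and 2.47e-04 from edgeR). PAX6 went the other way, with 3, 8 and 7 counts in hESCs and 1, 0 and 0 in NMP-L cells, lower by at least 2.33-fold, and IRX3 was lower in every NMP-L library without passing the threshold (-0.49, adjusted p = 0.0900), though it did relative to HPRT1 counts (-0.80, adjusted p = 0.0424). Their summed levels were between 9.77 and 12.9 CPM in hESC libraries and between 4.09 and 5.34 CPM in NMP-L libraries for the mesoderm markers, and between 9.55 and 15.9 against 21.4 and 24.7 CPM for the neural markers.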
